A study of Mus musculus with 12 samples.

Results

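Collagens are the triple-helical proteins that give connective tissue its strength. The genes described here are all those whose symbol on the array platform is Col, a number, the letter a and a number; 36 of the 14654 named genes met that rule, read by 62 probes. By the usual classes they were 10 fibrillar collagens, 8 basement membrane collagens (the 6 chains of type IV with types XV and XVIII) and 18 others. The 18 were 3 chains of type VI, 6 fibril-associated collagens, 3 short-chain collagens, the anchoring fibril collagen Col7a1, 4 transmembrane collagens and Col26a1. They were chosen by symbol and not by a measured value, but with earlier results of these data known.

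The study set tissues of mice lacking Sirt6, a chromatin-bound NAD-dependent deacylase, against the matching wild type tissue at the same age. Each of 12 two-colour arrays carried RNA of a knockout tissue in Cy5 and of wild type tissue in Cy3, in 6 groups of 2 arrays. Skin, thymus, liver and spleen were taken at 29 days of age, and liver and spleen also at 21 days. The 21-day wild type channel pooled 3 littermates; the sources used here do not give its makeup at 29 days, nor the strain, the sex or the knockout allele. Each value is the log2 ratio of knockout to wild type RNA with the array's median set to 0, so a value below 0 means less RNA in the knockout, and all comparisons were made with limma (adjusted p under 0.05 over all features tested). All arrays ran the dyes one way, so the preference of a probe for a dye is part of its ratio, and the spread among wild type animals does not enter the tests.

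In connective tissue, fibroblasts secrete fibrillar procollagens as triple helices; types I and III build the bulk of the fibrils of skin, and type V sits inside them and sets their width. Sheet-like basement membranes under epithelia and around vessels are woven from type IV, whose chains pair in fixed sets, and types XV and XVIII join them to the tissue beside them. Before secretion the chains are hydroxylated and folded by dedicated chaperones, and after it they are trimmed, crosslinked by lysyl oxidases and in time cut by metalloproteases.

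The arrays differed in quality. Values were present for 38300 to 38445 of 38784 probes at 29 days and for 28629 to 38123 at 21 days; replicate 6 of 21-day spleen had no value for 7 of the 36 collagens. The SD of the deposited ratios ran from 0.31 to 0.66 at 29 days and from 0.72 to 1.14 at 21 days. The 2 arrays of 29-day spleen ran against each other over all features (r = -0.25 across features, which are not independent replicates), against 0.35 in skin and 0.45 in thymus. Sirt6 itself read below 0 on both arrays of every group but 29-day spleen, where it gave 0.20 and 0.14, and its lowest value was -2.29 on replicate 6 of 21-day spleen; where its probes lie relative to the deletion was not known here, and these values leave the labels unchecked. Eif2s3y, a gene of the Y chromosome, ranged from -0.13 to 0.37 over the 29-day arrays numbered 1, from 3.35 to 5.08 over those numbered 2, and below 0 on every array at 21 days. Other Y-linked genes were less uniform at 21 days. Uty gave -3.97 and -0.32 in liver but 0.77 and 0.87 in spleen. Kdm5d gave -3.40 on the liver array that measured it, and 0.10 and -2.05 in spleen. The part of a difference in sex in any ratio below was not tested. Ratios hold no level, so the labelled tissues could not be checked against their marker genes.

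The pair Col4a1 and Col4a2 lie head to head on mouse chromosome 8, and their promoters are shown because the ratios of these genes ran together on every array that measured both (given further on). Windows of 300 bases were taken from RefSeq (build GRCm38.p6), 250 bases before the start of the gene and 50 after it, of which 32 were given, for 29 of the 36 collagens. The windows of Col4a1 (chr8:11312777-11313076, minus strand) and Col4a2 (chr8:11312555-11312854, plus strand) overlap by 78 bases, chr8:11312777-11312854. The windows of Col1a2 (chr6:4505368-4505667, plus strand) and Col5a3 (chr9:20815018-20815317, minus strand) are shown because both genes had low ratios in skin. Each reads 5′ to 3′ on the strand of its gene, with CCAAT on either strand (CCAAT or its complement ATTGG) in capitals.
Col4a1: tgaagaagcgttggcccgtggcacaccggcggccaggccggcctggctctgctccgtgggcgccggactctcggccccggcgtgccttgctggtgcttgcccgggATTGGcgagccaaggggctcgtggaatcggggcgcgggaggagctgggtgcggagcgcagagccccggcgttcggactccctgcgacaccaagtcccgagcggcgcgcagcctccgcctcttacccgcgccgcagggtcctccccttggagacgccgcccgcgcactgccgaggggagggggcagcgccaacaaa
Col4a2: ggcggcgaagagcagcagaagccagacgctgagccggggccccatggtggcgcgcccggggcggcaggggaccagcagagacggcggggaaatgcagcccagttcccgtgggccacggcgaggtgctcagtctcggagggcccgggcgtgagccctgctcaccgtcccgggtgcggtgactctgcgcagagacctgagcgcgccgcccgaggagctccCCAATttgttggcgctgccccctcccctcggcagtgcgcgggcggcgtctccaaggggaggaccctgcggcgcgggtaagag
Col1a2: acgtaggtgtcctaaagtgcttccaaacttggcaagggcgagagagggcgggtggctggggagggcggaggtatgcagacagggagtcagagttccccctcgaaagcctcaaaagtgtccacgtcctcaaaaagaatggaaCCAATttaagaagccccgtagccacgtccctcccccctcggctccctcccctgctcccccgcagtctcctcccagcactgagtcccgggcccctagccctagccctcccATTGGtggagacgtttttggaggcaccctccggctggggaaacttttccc
Col5a3: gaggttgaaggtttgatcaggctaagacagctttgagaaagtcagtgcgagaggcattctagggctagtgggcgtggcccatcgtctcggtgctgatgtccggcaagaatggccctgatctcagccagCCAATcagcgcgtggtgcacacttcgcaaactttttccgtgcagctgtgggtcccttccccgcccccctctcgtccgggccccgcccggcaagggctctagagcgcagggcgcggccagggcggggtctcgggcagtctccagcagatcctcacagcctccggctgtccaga

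CCAAT on either strand stood in 12 of the 32 collagen windows (37.5%) and in 37.4% of all 32851 windows counted, which do not cover every chromosome. All 4 windows shown hold it, but those of Col5a1 and Col15a1, not shown and also low in skin, do not. GGGCGG on either strand, the letters known as a GC box, stood in 21 of the 32 (65.6%) and in 35.7% of all. TATAAA on either strand stood in 5 of the 32 (15.6%) and in 13.6% of all. Matches of different motifs were counted separately and may share letters, and a match describes the letters only.

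Across the whole series, 1 collagen passed the test in 1 group: Col4a3, a chain of the basement membrane of kidney and lung, was lower in 21-day knockout liver. In that group 2.54% of all features were called, a share near that of 1 of 36 collagens. In 29-day skin the lowest mean ratios were those of Col5a1, Col5a3, Col1a2, Col15a1 and Col5a2, none of which passed the test over all features. Thymus gave the most collagens above 0 on both arrays, and liver and spleen at 29 days gave ratios that depended on the replicate. The heat map of all 36 genes on the 12 arrays shows these patterns.

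**Figure D1:**
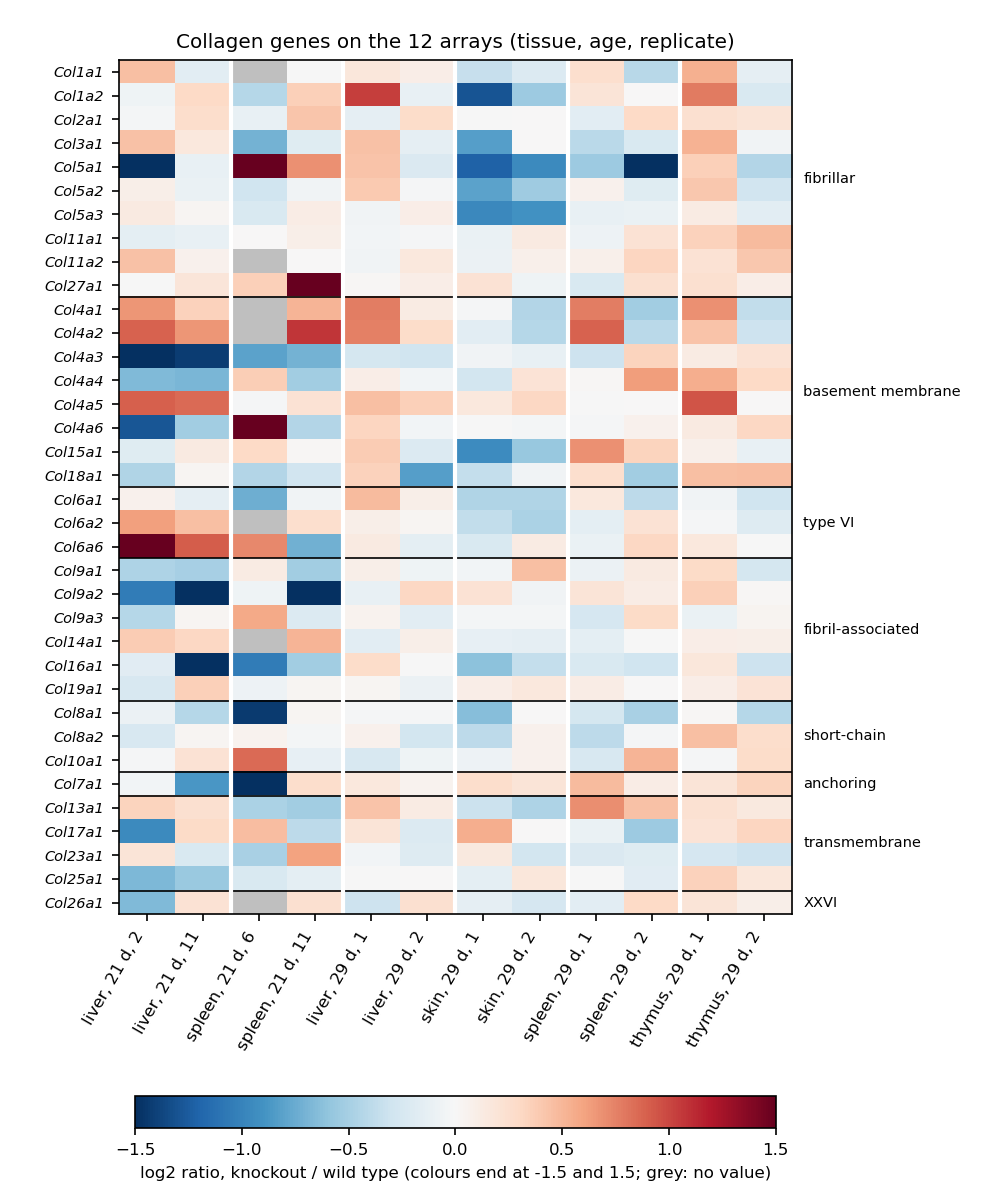
Log2 ratio of knockout over wild type for the 36 collagen genes (rows, by class) on the 12 arrays (columns, by tissue, age and replicate); blue is lower and red higher in the knockout, colours end at -1.5 and 1.5, and grey marks the 7 values absent on replicate 6 of 21-day spleen. The skin columns are blue for Col1a2, Col5a1, Col5a2, Col5a3 and Col15a1, and the 21-day liver columns are dark blue for Col4a3.

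In 29-day skin the 3 chains of collagen V, which sets fibril width, were among the 5 collagens of lowest mean, with Col1a2 and Col15a1. Col5a3 gave -0.97 on replicate 1 and -0.91 on replicate 2. This placed it among the lowest 0.725% and 0.765% of all features on those arrays. Its mean was -0.94 (SE 0.16, n = 2), 1.92-fold lower, with a limma adjusted p = 0.153 and an unadjusted p = 0.000224. Col5a1 gave -1.22 and -0.96, a mean of -1.09 (SE 0.43, n = 2, limma adjusted p = 1). Col5a2 gave -0.80 and -0.54, a mean of -0.67 (SE 0.21, limma adjusted p = 0.865). All 3 chains of type V were thus below -0.5 on both arrays; the probes of Col5a2 differed, from -1.15 to -0.46 on replicate 1 and from -0.81 to -0.26 on replicate 2, while Col5a1 and Col5a3 had 1 probe each.

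The chains of the major skin collagens were less even. Col1a2, the second chain of type I, gave -1.30 on replicate 1 and -0.54 on replicate 2, a mean of -0.92 (SE 0.34, 1.89-fold lower, limma adjusted p = 1). Col1a1, its partner in a heterotrimer that needs more of the Col1a1 chain than of Col1a2, gave -0.34 and -0.20, between the 5th and the 95th percentile of all features on both arrays. The partner chains of type I therefore differed in size although both were below 0. Col3a1, the chain of type III, gave -0.82 and 0.01, so that its direction rests on replicate 1; its 2 probes gave -1.14 and -0.51 on that array and -0.31 and 0.33 on the other.

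The 4 fibrillar chains known for cartilage and other tissues lay close to 0 in skin. Col2a1, the main collagen of cartilage, gave -0.00 and 0.01. Col11a1 and Col11a2, which share its fibrils, gave -0.10 and 0.13, and -0.08 and 0.07; Col27a1 gave 0.21 and -0.07. Over all 10 fibrillar collagens the median of the means was -0.34 (medians of -0.57 and -0.14 on the arrays), against 0.01 over all features. The 6 chains of types I, III and V had a median of -0.80 and the 4 of types II, XI and XXVII one of 0.01. That division was made after the values were seen and has no test.

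Among the basement membrane collagens Col15a1 stood lowest in skin. It encodes type XV, which bridges basement membranes and the fibrils next to them; its ratios were -0.94 and -0.56, a mean of -0.75 (SE 0.20, n = 2, limma adjusted p = 0.602). Col18a1, its relative, whose end is known as endostatin, gave -0.36 and -0.06. Col4a1 and Col4a2, the chains of type IV found in nearly all basement membranes, gave -0.02 and -0.44, and -0.16 and -0.42. The 4 other chains of type IV stood between -0.27 and 0.31 on both arrays. The class as a whole had a median of -0.15, with 6 of 8 genes below 0 on both arrays, 1 above and 1 of opposite signs.

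Of the other types, Col6a1 and Col6a2, chains of the beaded microfibrils around cells, gave -0.45 on both skin arrays, and -0.37 and -0.48. Col13a1, a transmembrane collagen, gave -0.33 and -0.46, and the fibril-associated Col16a1 gave -0.61 and -0.36. These 4 genes lay below 0 on both arrays and above -0.5 on at least 1. At the other end were 2 collagens made by the cells of the epidermis, though not these alone. Col7a1, which forms the fibrils that anchor the epidermis, gave 0.26 and 0.19, and Col17a1, part of the hemidesmosome, gave 0.55 and 0.01. The means of Col9a1 and Col19a1 were 0.203 and 0.124, and that of the type IV chain Col4a5 was 0.235. Both skin values of Col7a1 lay between the 5th and the 95th percentile of all features. It was also above 0 on both arrays of 29-day liver, spleen and thymus (means 0.101, 0.296 and 0.26). The 18 other types had a median of -0.06.

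**Figure D2:**
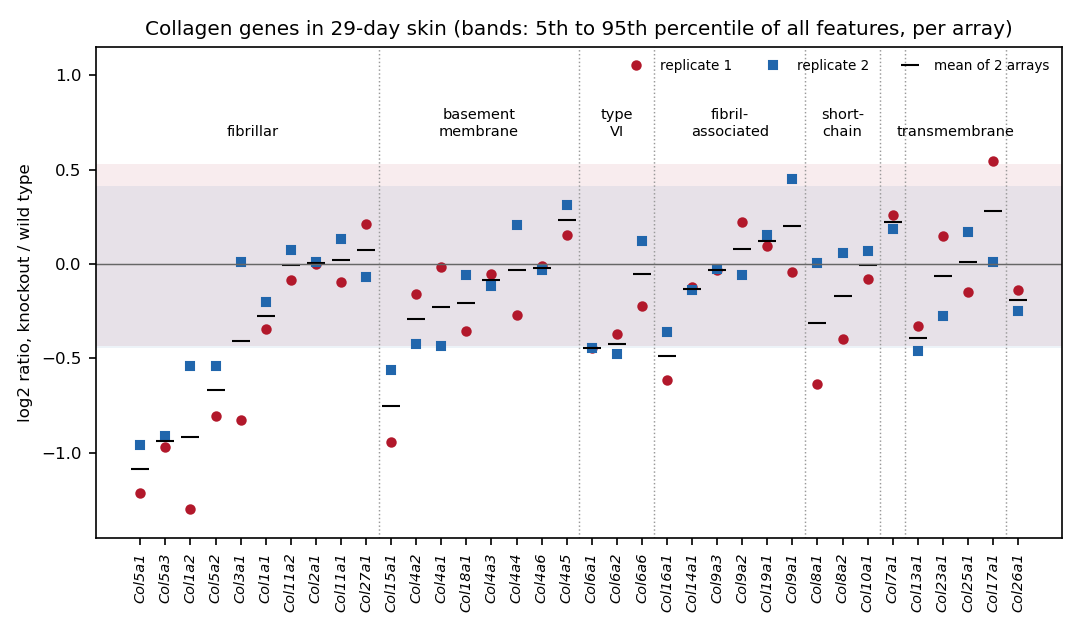
Log2 ratio of knockout over wild type in 29-day skin (vertical axis) for the 36 collagen genes (horizontal axis, by class and then by mean); circles are replicate 1, squares replicate 2, dashes their mean, and the shaded bands run from the 5th to the 95th percentile of all features on each array. Col5a1, Col5a3, Col1a2, Col5a2 and Col15a1 lie under the bands on both arrays, as Col6a1 does by a small margin, and the cartilage-type chains lie near 0.

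Counted over skin, 18 of the 36 collagens were below 0 on both arrays, against 26.9% of all features. Only 4 were above 0 on both, against 28.2%, and 14 had opposite signs. Below -0.5 on both arrays, a limit set after the values were seen, were 5 of 36, namely Col1a2, Col5a1, Col5a2, Col5a3 and Col15a1, against 1.41% of all features. At an unadjusted p under 0.05, 7 of 36 collagens were lower, against 1.8% of all features, and 0 were higher, against 1.46%. Limma with adjustment over all features called 0 of 36, where it called 0.0389% of all features. Ratios of the 2 arrays correlated across the 36 genes with r = 0.66, given as a description, as the genes share both arrays. The same r was 0.62 in 21-day liver. It was 0.10 in 29-day spleen, 0.01 in thymus, -0.05 in 29-day liver and, over 29 collagens, 0.045 in 21-day spleen.

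The call of 0 in skin depended on how the arrays were scaled. With all arrays scaled to equal spread limma called 2 collagens, Col5a1 and Col5a3, and 1.39% of all features. With quantile normalization it called 4, those 2 with Col5a2 and Col15a1, and 1.64% of all features. With array quality weights it called 3, Col5a1, Col5a3 and Col15a1, and 1.85% of all features. All of these calls were of lower values in the knockout, and the range of adjusted p for Col5a3 over all alternatives was 0.00118 to 1.

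Skin was set against the mean of liver, spleen and thymus at 29 days by a contrast of the knockout effects. Col1a2 had the largest gap, with -0.92 in skin and 0.28 in the others, a difference of -1.20 (SE 0.39, limma adjusted p = 1). Col15a1 differed by -0.94 (SE 0.24), Col5a3 by -0.90 (SE 0.19, adjusted p = 0.699), Col13a1 by -0.74 and Col5a2 by -0.73. For Col7a1 the means were 0.22 and 0.22. In limma 0 of 36 collagens and 0% of all features passed, while 5 collagens, all lower in skin, had an unadjusted p under 0.05 (1.27% of all features were lower at that limit). With arrays scaled to equal spread the contrast called Col5a3 alone (0.343% of all features), with quantile normalization Col5a3, Col13a1 and Col15a1 (0.558%), and with array quality weights Col5a3 alone (0.134%).

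Of 9 measured genes that fold and export procollagen, 6 were below 0 on both skin arrays, 2 above and 0 called. Their median was -0.25, with means from -0.79 to 0.28. Of all features 26.9% were below 0 on both skin arrays, 28.2% above and 0.0389% called. The counts of the other lists in skin are to be read beside these shares, and for lists this small no test of a count was made. Serpinh1, the collagen-specific chaperone HSP47, gave -0.84 and -0.70, and Fkbp14, a prolyl isomerase of the endoplasmic reticulum that acts on collagens, gave -0.92 and -0.66. Sparc, a collagen-binding glycoprotein, gave -0.90 and -0.28, and Sec24d, a coat protein of the vesicles that export procollagen, -0.52 and -0.39. Of 15 hydroxylases and related modifying enzymes 8 were below 0 on both arrays and 3 above, with a median of -0.07. P4ha2, a prolyl 4-hydroxylase, was lowest at -0.63 and -0.57.

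Outside the cell, 3 of 5 lysyl oxidases were below 0 on both arrays (all features 26.9%), with a median of -0.34. Loxl2 gave -0.77 and -0.68, Lox, which crosslinks collagen and elastin, -0.46 and -0.58, and Loxl1 -0.19 and -0.49. Among 5 proteases of the propeptides and their enhancers 3 were below 0 on both arrays. Pcolce2, an enhancer of procollagen C-proteinase, was the 1 above, at 0.55 and 0.57, and Bmp1, that proteinase, gave -0.29 and -0.23.

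Of 11 measured genes of collagen breakdown 5 were below 0 on both arrays (all features 26.9%), 3 above (28.2%) and 3 of opposite signs. Their median was -0.15, with means from -0.86 to 0.46. The 4 of largest size were all below 0: Fap, a fibroblast surface protease, gave -1.02 and -0.70, the metalloproteases Mmp3 and Mmp9 -0.92 and -0.51, and -0.37 and -0.77, and Mrc2, the receptor that takes up cut collagen, -0.49 and -0.61. Of 4 inhibitors of metalloproteases 2 were above 0 on both arrays, Timp2 at 0.53 and 0.28 and Timp1 at 0.31 and 0.24. None of these genes passed the test in skin.

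Among partners of the fibrils Postn had a mean of -1.23, below that of any collagen in skin. Postn, the matrix protein periostin, gave -1.76 and -0.71, Fbn2, a fibrillin of microfibrils, -0.80 and -1.19, and Eln, elastin, -0.62 and -0.77. Over 13 fibril partners 8 were below 0 on both arrays (all features 26.9%) and 2 above (28.2%), with a median of -0.19. Basement membrane partners were mixed, 5 of 10 below and 4 above on both arrays: Nid2, which links laminin to type IV, gave -1.11 and -0.69, and Lamb3, a chain of the laminin under the epidermis, gave 1.03 and 0.41.

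Among growth signals for matrix production Igf1, the growth factor that mediates much of growth hormone's effect, was lowest in skin with -1.10 and -1.24 (mean -1.17, SE 0.28, limma adjusted p = 0.471). It also gave -1.09 and -1.04 in 29-day liver, which did not pass the test (adjusted p = 0.703). The other 9 measured signals of the list lay between -0.47 and 0.43 on both skin arrays; Tgfb2 gave -0.44 and -0.29 and Ccn2 0.20 and 0.43. Of 6 collagen receptors 2 were below 0 on both arrays and 2 above; the integrin chain Itga11, which binds fibrillar collagen on fibroblasts, gave -0.27 and -0.44. In these lists limma called 0 genes in skin.

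**Figure D3:**
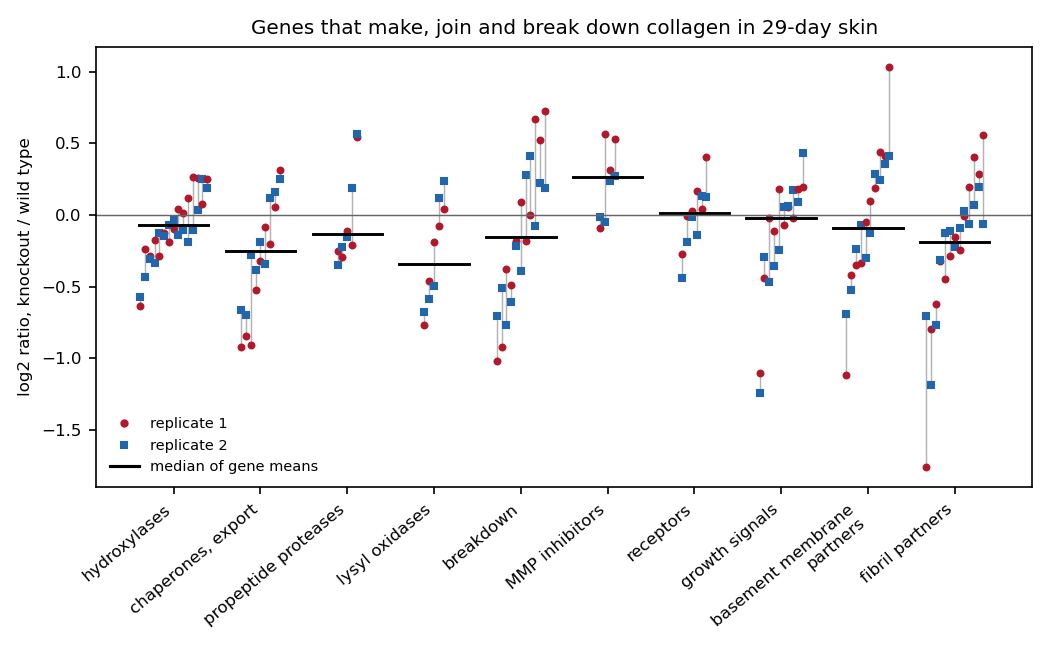
Log2 ratio of knockout over wild type in 29-day skin (vertical axis) for genes that make, join and break down collagen (horizontal axis, by list); circles are replicate 1, squares replicate 2, a thin line joins the values of a gene, and black bars are list medians of the gene means. Low values on both arrays include Postn, Igf1, Nid2, Fkbp14, Serpinh1 and Fap, and high ones Lamb3 and Pcolce2.

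Markers of the cells of skin differed in direction beside the collagens. Of all features 26.9% were below 0 on both skin arrays, 28.2% above and 0.0389% called. The 10 fibroblast markers had a median of -0.02, with 4 below and 3 above 0 on both arrays; Lum gave -0.74 and -0.12 and Dcn 0.50 and 0.36, both proteoglycans of collagen fibrils. Adipocyte markers had a median of -0.53 (range of means -1.48 to 0.27, 4 of 6 below 0 on both arrays), keratinocyte markers one of 0.23 (5 of 6 above) and skeletal muscle markers one of 0.52 (5 of 6 above, Cacng1 called). Proliferation genes had a median of -0.39 (4 of 4 below) and endothelial markers one of 0.05. Cartilage markers had a median of 0.00, although Epyc was called higher at 2.30 and 2.66. Ribosomal protein and respiratory chain genes together had medians of 0.49 and 0.24 on the skin arrays; the part of any of these in the collagen ratios was not tested, and fewer cells of a type and less RNA per cell cannot be told apart.

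In 29-day thymus collagens lay above 0 more often than below. On both arrays 18 of 36 were above 0, where 38.5% of all features were, and 3 were below, where 33.7% were; the median was 0.16. Col11a1, a minor fibrillar chain, gave 0.35 and 0.47, a mean of 0.41 (SE 0.16, n = 2, limma adjusted p = 0.908). Col18a1 gave 0.46 on both arrays, and Col4a4 gave 0.55 and 0.30. The 2 arrays of thymus differed for the chains found low in skin: types I, III and V had a median of 0.46 on replicate 1, with 0 of 6 below 0, and of -0.19 on replicate 2, with 6 of 6 below.

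That swing is clearest in type I and the common chains of type IV. Col1a1 gave 0.54 and -0.14, Col1a2 0.78 and -0.22, Col4a1 0.68 and -0.37 and Col4a2 0.43 and -0.31. In thymus 5 heart muscle markers had a median of -1.92, 5 of 5 below -0.5 on both arrays, and 4 proliferation genes one of -0.86; their part was not tested. Limma called 0 of 36 collagens in thymus, and 0.013% of all features; 1 collagen, Col11a1, had an unadjusted p under 0.05 (5.21% of all features).

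In 29-day liver, where collagens are made mainly by stellate cells, replicate 1 gave higher ratios than replicate 2 for several chains. Col1a2 gave 1.04 and -0.11, Col3a1 0.44 and -0.14, Col15a1 0.37 and -0.20 and Col18a1, a product of hepatocytes in liver, 0.35 and -0.83. Collagens above 0 on both arrays included Col4a1 at 0.76 and 0.12, Col4a2 at 0.75 and 0.27 and Col4a5 at 0.45 and 0.35. On both arrays 9 of 36 collagens were above 0 (all features 23.9%), 5 were below (22.9%) and 22 had opposite signs. Limma called 0 of 36, and 0.104% of all features; 0 collagens had an unadjusted p under 0.05 (2.16% of all features). The 5 stellate cell markers had a median of 0.03.

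In 29-day spleen 8 of 36 collagens were above 0 on both arrays (all features 19.1%) and 10 below (17.7%). Col13a1 gave 0.70 and 0.44, a mean of 0.57 (SE 0.16, limma adjusted p = 1), and Col15a1 0.68 and 0.33; both were below 0 on both arrays in skin. Col5a1 gave -0.54 and -2.04. Limma called 0 of 36 collagens and 0% of all features, with 3 collagens at an unadjusted p under 0.05 (3.3% of all features), 2 of them higher. Hepatocyte markers had a median of -1.22 in these samples (6 of 6 below 0 on both arrays) and ribosomal and respiratory chain genes gave 0.30 and -1.04, which were not tested as a source of these ratios.

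**Figure D4:**
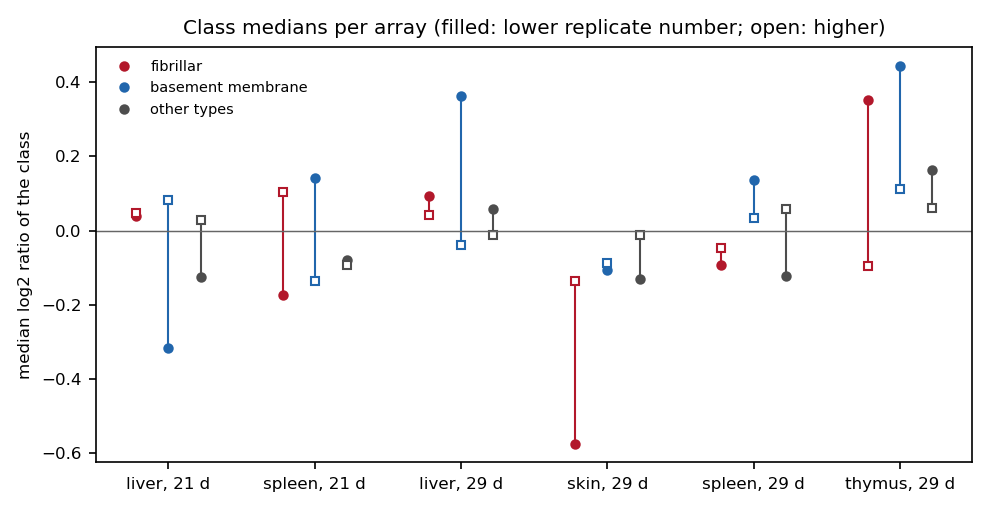
Median log2 ratio of knockout over wild type (vertical axis) of the 10 fibrillar, 8 basement membrane and 18 other collagens on each array, by tissue and age; a line joins the 2 arrays of a group, filled circles mark the lower replicate number and open squares the higher. Fibrillar collagens in skin are below 0 on both arrays (-0.57 and -0.14), while in thymus they are 0.35 and -0.10.

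At 21 days the ratios were wider. With the arrays as centred more features were called than in 29-day skin, but fewer once the arrays were scaled to equal spread (0.505% in liver and 0.0432% in spleen, against 1.39% in 29-day skin) or quantile normalized (0.251% and 0.0518%, against 1.64%). In liver, with the arrays as centred, limma called 1 of 36 collagens, where it called 2.54% of all features. That gene was Col4a3, at -2.81 on replicate 2 and -1.42 on replicate 11, a mean of -2.12 (SE 0.29, n = 2, 4.34-fold lower, limma adjusted p = 0.00764). It was read by 1 probe, and the call was lost with quantile normalization (adjusted p = 0.0655), in a fit to the 21-day arrays alone (0.507) and when arrays were centred on ribosomal and respiratory chain genes (0.0555), an alternative added after seeing the data. Over all alternatives its adjusted p ran from 0.00102 to 0.507.

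The 6 chains of type IV split in that liver. Col4a4, which assembles with Col4a3 and Col4a5, gave -0.67 and -0.69, and Col4a6 gave -1.28 and -0.52. Col4a5 gave 0.90 and 0.85 (mean 0.87, SE 0.21, adjusted p = 0.069), Col4a2 gave 0.89 and 0.66, and Col4a1 gave 0.66 and 0.35. Thus 3 chains were below 0 on both arrays and the other 3 above, none but Col4a3 past the test. Other wide ratios were those of Col6a6 at 1.501 and 0.909 and of Col9a2, a cartilage collagen chain, at -1.05 and -1.61. In all 10 of 36 collagens were above 0 on both arrays (all features 31.8%) and 11 below (33.7%).

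Around the collagens of 21-day liver, Serpinh1 was called lower, at -0.93 and -1.21 (2.1-fold, limma adjusted p = 0.0356). In 21-day spleen it was called lower as well, at -1.37 and -0.84 (2.15-fold, adjusted p = 0.0312). With the skin values this made 6 arrays of 6 below -0.5, but at 29 days Serpinh1 gave 0.03 and -0.21 in liver, 0.20 and -0.34 in spleen and 0.37 and -0.11 in thymus. Mmp9, gelatinase B, and Tll1, a propeptide proteinase, were called lower in 21-day liver at means of -1.86 and -1.51. In 21-day spleen Lama1, a laminin chain, and Pdgfa, a growth factor for fibroblasts, were called higher (means 1.82 and 1.23), and Tgfbr1, a receptor of TGF-beta, lower (-0.81). In this main analysis limma called 2.54% of all features in 21-day liver and 4.13% in 21-day spleen. A fit to the 21-day arrays alone called 0% in either tissue, so all of these calls were lost there. With array quality weights 0% were called in 21-day spleen.

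In 21-day spleen 29 of the 36 collagens could be tested, and limma called 0 of them, where it called 4.13% of all features. An unadjusted p under 0.05 was reached by 2 higher and 5 lower, 7 of 29, where 27.3% of all features reached it, a share no lower than that of the collagens. Col27a1 gave 0.36 and 2.58, and its 2 probes differed by 4.98 on replicate 11. Col5a1 gave 1.54 and 0.68, Col13a1 -0.47 and -0.52 and Col4a3 -0.80 and -0.71. On both arrays 4 of 29 were above 0 (all features 25.2%) and 9 below (29.1%). Probes of Col4a6 spanned 6.22 on replicate 6, the array with the most absent values. Proliferation genes had a median of -1.15 and hepatocyte markers one of -1.21 in these samples.

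The effect at 29 days was set against that at 21 days in the tissues with both; there the age and the set of arrays cannot be told apart. In liver limma called 0 of 36 collagens, and 0.0138% of all features, with 4 higher and 1 lower at an unadjusted p under 0.05 (8.22% of all features); Col4a3 differed most, -0.28 against -2.12 (difference 1.84, SE 0.41, adjusted p = 0.212). In spleen it called 0 of 29, and 0.0866% of all features, with 1 higher and 2 lower at an unadjusted p under 0.05, 3 of 29 where 11.1% of all features reached it. Col5a1 differed most there, -1.29 against 1.11.

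Chains that assemble with each other were compared array by array. Col4a1 and Col4a2, a head to head pair, had the same sign on 11 of 11 arrays that measured both. Their ratios differed by a median of 0.14 and at most 0.56. They were above 0 together on replicate 1 and below 0 together on replicate 2 in 29-day spleen and thymus, above 0 on both arrays of liver at either age, and below 0 on both skin arrays. Col1a1 and Col1a2, which lie on different chromosomes and form type I, had the same sign on 6 of 11 arrays, with a median difference of 0.37. The same sign was found on 8 of 12 arrays for Col4a3 and Col4a4, 5 of 12 for Col4a5 and Col4a6, 8 of 12 for Col5a1 and Col5a2, and 7 of 11 for Col6a1 and Col6a2. Of these, Col4a5 and Col4a6 lie head to head as well. Their windows are chrX:141475169-141475468 (plus strand) and chrX:141474027-141474326 (minus strand). A part of this arrangement in the ratios was not tested. The largest differences were 2.15 for Col4a3 and Col4a4, 2.18 for Col4a5 and Col4a6 and 1.86 for Col5a1 and Col5a2. They were 0.95 for Col1a1 and Col1a2, and 0.61 for Col6a1 and Col6a2, close to the 0.56 of Col4a1 and Col4a2. No test of these counts was made.

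**Figure D5:**
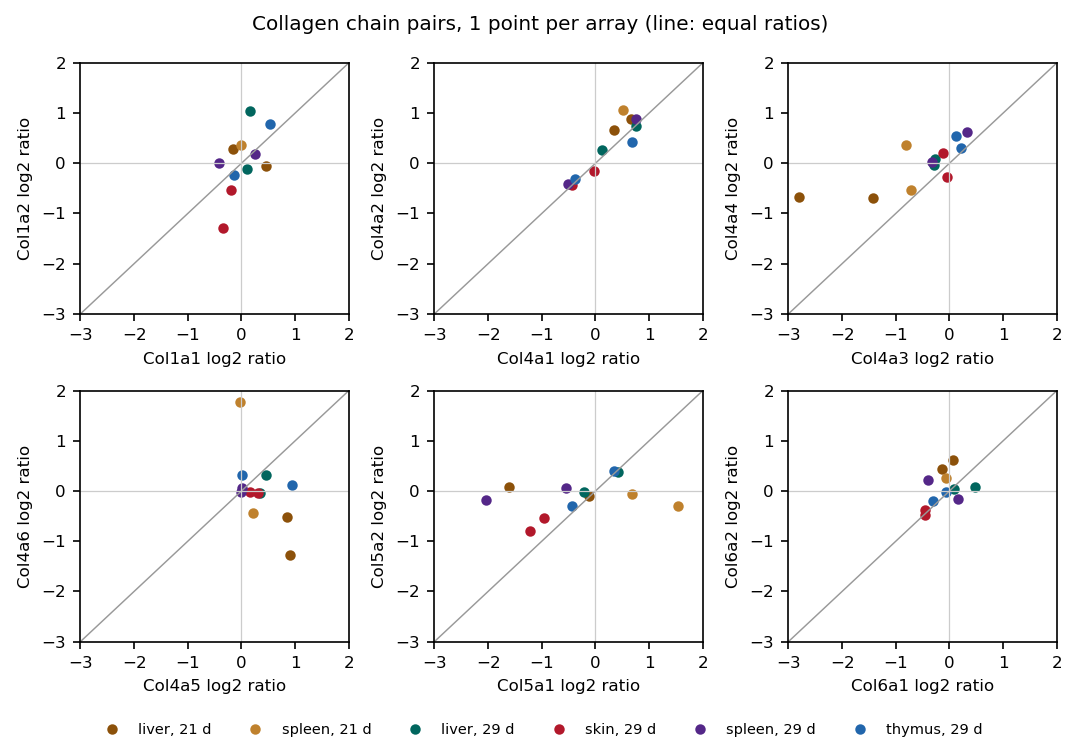
Log2 ratio of knockout over wild type of a collagen chain (horizontal axes) against that of its partner chain (vertical axes), 1 point per array, coloured by tissue and age; the diagonal marks equal ratios. Points of Col4a1 and Col4a2 follow the diagonal on all 11 arrays with both values, while in skin Col1a2 lies under the diagonal with Col1a1.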

How the data were processed

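The authors deposited 1 table of log2 ratios of Cy5 (knockout) over Cy3 (wild type), with 38784 probes and 12 arrays; the values fit base 2, and the sources used here do not give their normalization or the signals behind them. TRIzol was used for the knockout RNA, per the labels, which do not say how wild type RNA was extracted. Each array was centred on its median. The platform annotation named 22204 probes; probes of a gene were averaged, and with 16580 unnamed probes this made 31234 features. Limma 3.58.1 in R 4.3.3 (lmFit, eBayes; 3.57 prior degrees of freedom) fitted 1 mean per group over all 12 arrays, two-sided, with Benjamini-Hochberg adjustment over all features and 0.05 as the threshold. A feature was tested if both arrays of its group and of 2 further groups had a value.

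The labels do not say that the arrays of a group came from separate animals, so the p-values rest on the spread of these arrays; Y-linked Eif2s3y differed widely between the 2 arrays of each 29-day tissue, which therefore did not carry the same RNA. The number of arrays limits the precision. A replicate number of 21-day liver was given by order of deposit. The members and lists were chosen with earlier results of these data known. Every collagen could be named; of other lists, called members or up to 4 of largest mean in skin, and markers.

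On simulated data (skin, 30641 features) 10% of changes of 1 and 71% of changes of 2 on the log2 scale were recovered. Of 89 calls 8 were false. The real arrays differed in spread, with array quality weights from 0.208 in 21-day spleen to 2.76 in 29-day skin. How far the simulated noise followed this difference was not tested. The rates therefore describe the simulation, and give neither the power nor the share of false calls on the real skin arrays. Alternatives were no centring, scaling, quantile normalization, same-age arrays, a replicate block, robust eBayes, array quality weights, features on all arrays, probes singly or by median, leaving out each array and an adjusted p of 0.1; centring on ribosomal and respiratory chain genes was added after seeing the data.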

Additional observations from a re-analysis of the deposited data

Results flagged for a closer look

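Some collagens moved one way on both arrays of one group and the opposite way on every array of another. The share of all features that met this rule was not counted, so the number flagged is not read as a result. Col13a1 was below 0 on both skin arrays and above 0 on all 6 arrays of the other 29-day tissues, a difference of -0.739 (limma adjusted p = 1). In spleen it was above 0 on both arrays at 29 days and below 0 on both at 21 days, a difference of 1.063 (adjusted p = 0.182). Col5a1 in spleen ran the other way between the ages, a difference of -2.404 (adjusted p = 0.24). Col9a2 in spleen differed by 1.093 (adjusted p = 0.452) and Col7a1 in liver by 0.56 (adjusted p = 0.832). None of these differences passed the test, and between the ages the set of arrays differed too, so the 2 cannot be told apart.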

How the results depend on the processing

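Counts of called collagens in 29-day liver, spleen and thymus were 0 in the main analysis and under all 24 alternatives each. In 21-day liver, with 1 called, the count was 2 with no centring (4.39% of all features called) or with the median of the probes (2.54%). The count was 0 with quantile normalization (0.251%), same-age arrays (0%) or ribosomal and respiratory chain centring (0.794%). It was 3 with each probe on its own (2.53% of probes) and 5 at an adjusted p of 0.1 (6.19%). In 21-day spleen, with 0 called, it was 1 with no centring (3.84% of all features) or each probe on its own (4.1% of probes). At an adjusted p of 0.1 it was 2 (13.1% of all features). In skin it was 2 with scaling, 4 with quantile normalization and 3 with array weights; for skin against the other tissues it was 1, 3 and 1 in that order. Leaving out 1 array gave 0 to 1 for liver at 29 against 21 days (1 without either 21-day liver array) and 0 to 4 for spleen (2 without replicate 6 and 4 without replicate 11 of the 21-day arrays). At 29 days deviations of same-numbered arrays correlated at -0.21 to 0.41 between tissues over all features, and over the collagens at -0.31 to 0.55 (0.41 to 0.55 among liver, spleen and thymus). Eif2s3y split by number in all 4 tissues. As not every pair of tissues exceeded 0.1 and the labels tie no number to an animal, the numbers were not taken to pair the samples. With the replicate block, 3 collagens were called in 21-day liver (Col4a3, Col6a6, Col9a2), where 4.37% of all features were. In 21-day spleen 1 was called (Col27a1), where 7.99% of all features were, and in the other groups 0.

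The fibrillar median in skin was -0.654 with quantile normalization and -0.704 with ribosomal and respiratory chain centring, and -0.574 to -0.135 when 1 skin array was left out. The basement membrane median there was -0.218 with scaling, -0.275 with quantile normalization, -0.058 over features on all arrays, -0.509 with ribosomal and respiratory chain centring and -0.107 to -0.087 when 1 skin array was left out. Col3a1 in skin turned from -0.408 to 0.008 without replicate 1 (-0.825 without replicate 2). The cause of these shifts was not tested. The table held no signal over background, and dim spots therefore stayed in.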

Other observations

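At 29 days several collagens differed by replicate number in liver, spleen and thymus, a pattern chosen after the values were seen. On replicate 1 of liver, spleen and thymus Col4a1 gave 0.76, 0.76 and 0.68, and on replicate 2 it gave 0.12, -0.52 and -0.37. Col1a2 gave 1.04, 0.19 and 0.78 on replicate 1 and -0.11, 0.01 and -0.22 on replicate 2. In skin Col1a2 ran the other way, -1.30 on replicate 1 and -0.54 on replicate 2.

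Ccn2, a matrix protein induced by TGF-beta in many cells, gave 0.97 and 1.00 in 29-day spleen and 0.58 and -0.62 in thymus. Timp2, an inhibitor of metalloproteases, gave 0.78 and -0.08 in thymus and was above 0 on both arrays of each of the other 5 groups, with limma calling it in none.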
